A study of Mus musculus with 12 samples.

Results

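Perivascular fibroblasts are the matrix-producing cells that lie along the larger vessels of the brain, and 9 genes that mark them are described here across an endotoxin time course. The genes were the 4 collagen chains Col1a1, Col1a2, Col3a1 and Col15a1, the matrix proteins Dcn, Lum and Fbln1, the receptor Pdgfra and the growth factor Igf2. They were chosen by name as fibroblast markers, with earlier results of these data known. All 9 passed the filter on low counts that 19150 of 54119 genes passed. The RNA came from cerebral vessels of wild type C57BL6 mice that were 2 to 3 months old and had been injected intraperitoneally with PBS or with LPS, a bacterial endotoxin, at 10 mg/kg. Vessels were taken 15 min, 30 min or 4 h after LPS. How long after PBS the control vessels were collected is not given in the sources used here. The 4 groups are named PBS and, by the time since LPS, LPS 15 min, LPS 30 min or LPS 4 h. Each had 3 libraries, and each library pooled the vessels of 1 male and 1 female mouse, so that the sexes cannot be compared and p-values measure the spread between such pools. The meninges were stripped before the forebrain was homogenised and its vessels were kept on a mesh.

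In the brain, fibroblasts sit between the smooth muscle of arteries and veins and the end-feet of astrocytes, and capillaries carry few of them. They lay down fibrillar collagen, made of long triple helices, and small leucine-rich proteoglycans such as decorin that bind these fibrils and set their spacing. They also carry the alpha receptor for platelet-derived growth factor and are a source of insulin-like growth factor 2, which choroid plexus and meningeal cells secrete too.

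Libraries held 18.3 M to 25.9 M fragments assigned to transcripts. In any library, a member had between 182 fragments (Lum) and 34786 fragments (Igf2). Levels compared between libraries are CPM, the fragment count relative to the library's total after TMM, a scaling that sets most genes to no change. Levels compared between genes are TPM, which also account for transcript length. The TMM factors averaged 1.17 in PBS, 1.15 at 15 min, 1.04 at 30 min and 0.717 at 4 h. Scaling by library size alone moved the median log2 fold change of all genes to -0.71 at 4 h and to -0.17 at 30 min, so that changes below are relative to the bulk of genes. Of 24 other fibroblast markers, 24 were measured and none was listed at 0 in any group mean. In RNA of mixed cells, fewer cells of a type and less RNA per cell cannot be told apart.

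On GRCm38 with the GENCODE M21 annotation, the collagen genes are Col1a1 (ENSMUSG00000001506) at chr11:94936224-94953042 and Col1a2 (ENSMUSG00000029661) at chr6:4504814-4541544, and Col3a1 (ENSMUSG00000026043) at chr1:45311538-45349706 and Col15a1 (ENSMUSG00000028339) at chr4:47208161-47313167. The other matrix genes are Dcn (ENSMUSG00000019929) at chr10:97479609-97518143, Lum (ENSMUSG00000036446) at chr10:97565128-97572703 and Fbln1 (ENSMUSG00000006369) at chr15:85205949-85286535. Pdgfra and Igf2 are Pdgfra (ENSMUSG00000029231) at chr5:75152292-75198215 and Igf2 (ENSMUSG00000048583) at chr7:142650766-142666816. Igf2 lies on the minus strand and the others on the plus strand, and counts cover all annotated exons of a gene.

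The 4 collagen genes among the members fell after LPS, and Dcn and Igf2 were not called at any time. At 4 h, Col1a1, Col1a2, Col3a1 and Col15a1 were all called lower. A gene was called where edgeR's test against a 1.5-fold limit gave an adjusted p under 0.05 over all genes tested. At 15 min the called genes were Col1a1 and Col3a1, and at 30 min they were Col1a1 and Col15a1. The 3 comparisons with PBS share the PBS libraries.

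Col1a1 encodes the alpha 1 chain of type I collagen, the main fibrillar collagen. It stood at 86.7, 87.7 and 96.1 CPM in the PBS libraries, at 45.0, 46.9 and 48.7 CPM at 15 min, at 51.9, 50.9 and 56.9 CPM at 30 min and at 25.5, 23.0 and 23.0 CPM at 4 h. Every LPS library lay below every PBS library, and the libraries taken at 4 h lay below those taken at 15 and 30 min. The log2 fold change against PBS was -0.94 ± 0.05 (SE, n = 3 against 3, as throughout) at 15 min (edgeR adjusted p = 4.35e-06), -0.76 ± 0.05 at 30 min (edgeR adjusted p = 0.00913) and -1.92 ± 0.06 at 4 h (edgeR adjusted p = 9.9e-16). Its level thus fell by 48.0% at 15 min and fell by 73.6% at 4 h. The call at 30 min was lost without replicate 3 of PBS (adjusted p = 0.0865) or without replicate 2 of LPS 30 min (adjusted p = 0.0708).

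Col1a2 encodes the partner chain, of which a type I collagen molecule takes 1 for a pair of Col1a1 chains. Its levels were 168, 172 and 172 CPM in PBS, 114, 121 and 123 CPM at 15 min, 149, 151 and 155 CPM at 30 min and 107, 107 and 102 CPM at 4 h. No LPS library overlapped the PBS libraries, and the levels at 30 min lay between those of PBS and those at 15 min. Col1a2 was called at 4 h, with a log2 fold change of -0.70 ± 0.04 (edgeR adjusted p = 0.0018). It was not called at 15 min (-0.51 ± 0.03) or at 30 min (-0.17 ± 0.03).

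Col3a1, the chain of the type III collagen of vessel walls, had 71.3, 71.5 and 78.3 CPM in PBS and 42.4, 44.7 and 45.4 CPM at 15 min. It had 47.0, 47.3 and 48.0 CPM at 30 min and 38.4, 44.1 and 37.3 CPM at 4 h. The PBS libraries stood above all 9 LPS libraries, and the LPS 15 min and LPS 4 h libraries overlapped. The log2 fold change was -0.74 ± 0.05 at 15 min (edgeR adjusted p = 0.0273), -0.64 ± 0.05 at 30 min (edgeR adjusted p = 0.715) and -0.88 ± 0.06 at 4 h (edgeR adjusted p = 2.07e-05). The call at 15 min was lost without replicate 3 of PBS (adjusted p = 0.187), without replicate 1 of LPS 15 min (adjusted p = 0.156) or without its replicate 2 (adjusted p = 0.0536).

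Col15a1 encodes type XV collagen, a collagen that joins basement membranes to the fibrils around them. Its levels were 49.1, 45.0 and 52.0 CPM in PBS, 37.5, 38.6 and 38.3 CPM at 15 min, 28.3, 29.7 and 29.1 CPM at 30 min and 27.6, 26.8 and 24.04 CPM at 4 h. Each later group lay below the one before it without overlap. Against PBS, Col15a1 stood at -0.35 ± 0.06 on the log2 scale at 15 min, -0.74 ± 0.06 at 30 min (edgeR adjusted p = 0.0381) and -0.90 ± 0.07 at 4 h (edgeR adjusted p = 3.8e-05). The call at 30 min rested on every library but replicate 2 of PBS: leaving out any 1 of the other 5 gave an adjusted p of 0.0557 to 0.247, and with the library number as a block the gene was also not called.

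**Figure D1:**
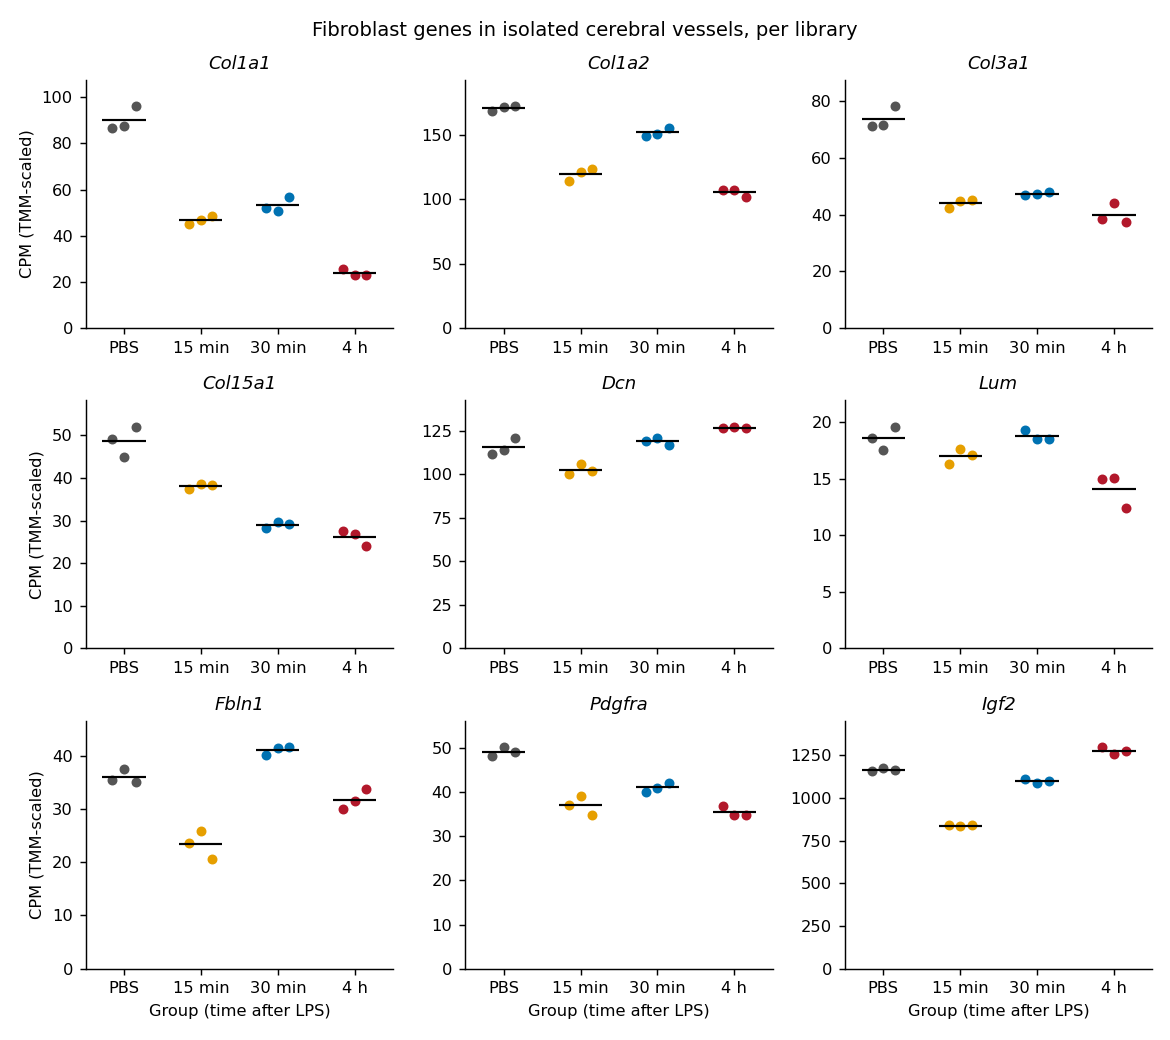
TMM-scaled CPM (vertical axis, from 0) of the 9 fibroblast genes in each of the 12 libraries, by group (horizontal axis); points are libraries and black lines are means of 3. The collagen genes Col1a1, Col1a2, Col3a1 and Col15a1 lie lower at 4 h than in PBS. On this scale Fbln1 is lowest at 15 min, and Dcn and Igf2 lie slightly above PBS at 4 h. When scaled by library size alone, Fbln1 is lowest at 4 h and Dcn and Igf2 lie below PBS at 4 h.

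For 6 of the 9 genes the table of RefSeq promoters used here holds a window from 250 bases before to 50 bases after a start on GRCm38.p6: Col1a2, Col3a1, Pdgfra, Igf2, Fbln1 and Col15a1. Below are the bases up to the annotated start of the most abundant GENCODE transcript for Col1a2 and Col3a1, which fell together at 4 h, and for the Igf2 window in which the transcripts with most Igf2 fragments start, as a gene that was not called. The Col1a2 stretch therefore stops 125 bases before the start that RefSeq gives, and the bases between both starts, which GENCODE counts as transcribed, are not shown. Capitals mark motif letters, and each sequence is written 5′ to 3′ in the direction of the gene.
Col1a2, chr6:4505368-4505492, plus strand: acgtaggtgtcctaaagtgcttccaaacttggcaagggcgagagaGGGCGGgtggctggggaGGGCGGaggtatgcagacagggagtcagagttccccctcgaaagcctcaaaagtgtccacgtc
Col3a1, chr1:45311288-45311537, plus strand: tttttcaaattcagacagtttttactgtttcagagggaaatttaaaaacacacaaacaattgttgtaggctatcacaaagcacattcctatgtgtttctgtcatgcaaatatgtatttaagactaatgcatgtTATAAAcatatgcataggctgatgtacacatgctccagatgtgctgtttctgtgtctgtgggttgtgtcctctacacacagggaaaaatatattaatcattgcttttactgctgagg
Igf2, chr7:142657497-142657746, minus strand: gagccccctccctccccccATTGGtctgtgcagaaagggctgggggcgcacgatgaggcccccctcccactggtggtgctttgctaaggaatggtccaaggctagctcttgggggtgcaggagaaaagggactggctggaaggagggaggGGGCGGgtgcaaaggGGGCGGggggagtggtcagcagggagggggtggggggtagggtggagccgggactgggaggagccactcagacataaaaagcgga

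The 4 motifs were searched on both strands, and no match overlapped another. The GC box (GGGCGG) stands 2 times in the Col1a2 stretch and 2 times in that of Igf2, and 35.7% of 32851 mouse windows of the full 300 bases hold it. The TATA box (TATAAA) stands once in the Col3a1 stretch, in 13.6% of all windows. A CCAAT box (CCAAT) stands once in the Igf2 stretch, in 37.4% of all windows, and the full Col1a2 window holds 2, both downstream of the bases shown. The AP-1-like letters TGANTCA (7.81% of all windows) are in none of the 10 windows of members. The transcripts that start in the windows shown carried 99.4% of the fragments of Col1a2, 96.8% of those of Col3a1 and 70.6% of those of Igf2.

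The other matrix genes were not called against PBS at any time with TMM. With library size scaling Lum and Fbln1 were called lower at 4 h. Dcn encodes decorin, a proteoglycan that coats collagen fibrils. It had 112, 114 and 121 CPM in PBS, 100, 106 and 102 CPM at 15 min, 119, 121 and 117 CPM at 30 min and 127, 127 and 127 CPM at 4 h. The 15 min libraries lay below PBS and the 4 h libraries above it. Its log2 fold change of -0.17 ± 0.03 at 15 min, 0.04 ± 0.03 at 30 min and 0.13 ± 0.04 at 4 h (95% interval 0.06 to 0.21) did not pass the 1.5-fold test at any time, and with library size scaling the last was -0.57. Tested without a fold limit, Dcn was called higher at 4 h on the TMM scale.

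Lum encodes lumican, a proteoglycan of the same family, and was among the lowest members. It spanned 17.6 to 19.6 CPM in PBS, 16.3 to 17.6 CPM at 15 min, 18.5 to 19.4 CPM at 30 min and 12.4 to 15.1 CPM at 4 h. The 4 h libraries alone lay wholly outside PBS, with a log2 fold change of -0.40 ± 0.09 that was not called. With library size scaling it was -1.10 and was called.

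Fbln1 encodes fibulin-1, which binds basement membrane and elastic fibre proteins. Its levels were 35.4, 37.6 and 35.1 CPM in PBS, 23.5, 25.8 and 20.6 CPM at 15 min, 40.1, 41.4 and 41.6 CPM at 30 min and 30.0, 31.5 and 33.7 CPM at 4 h. All libraries at 15 min lay below PBS, all at 30 min above it and all at 4 h below it. Against PBS the log2 fold change was -0.63 ± 0.07 at 15 min (edgeR adjusted p = 0.889), 0.19 ± 0.06 at 30 min and -0.18 ± 0.07 at 4 h, and none was called. With library size scaling the value at 4 h was -0.89 and was called. Between 15 and 30 min Fbln1 rose by 0.82 ± 0.07 on the log2 scale (edgeR adjusted p = 0.00737). That call was lost without replicate 3 of LPS 15 min (adjusted p = 0.0955) and under DESeq2, limma and library size scaling.

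Pdgfra encodes the receptor through which fibroblasts and oligodendrocyte precursors receive PDGF signals. It spanned 48.1 to 50.2 CPM in PBS, 34.9 to 39.2 CPM at 15 min, 40.1 to 42.1 CPM at 30 min and 34.8 to 36.8 CPM at 4 h. All LPS libraries lay below PBS, with log2 fold changes of -0.41 ± 0.05, -0.26 ± 0.05 and -0.47 ± 0.06 in order of time, none of which passed the 1.5-fold test. With library size scaling the last was -1.17 and was called. Of 10 oligodendrocyte precursor markers, 2 were called lower at 4 h (Gpr17 and Sox10) and 1 at 30 min (Neu4, lost without any 1 library, adjusted p of 0.0516 to 0.0919), and 1 was called higher at 15 min (Pcdh15). The 2 at 4 h are 20% of the list, near the 13.8% of all genes called lower, and with library size scaling 7 were called lower. The summed level of these markers was 216 to 219 CPM in PBS and 184 to 200 CPM at 4 h. By TPM the sum was mostly Cspg4, at 54.1 TPM in PBS of a list sum of 82.8 to 87.7 TPM, and which cells gave the Cspg4 RNA was not tested. Olig1 was next at 10.6 TPM, and Gpr17 and Sox10 stood at 2.80 and 2.49 TPM in PBS. None of the markers was at 0, and their part in the Pdgfra values was not tested.

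Igf2 encodes insulin-like growth factor 2, a secreted growth factor, and was the most abundant member. It had 1159, 1174 and 1160 CPM in PBS, 839, 835 and 839 CPM at 15 min, 1110, 1088 and 1096 CPM at 30 min and 1296, 1254 and 1272 CPM at 4 h. The groups did not overlap, with the lowest levels at 15 min and the highest at 4 h. The log2 fold change of -0.47 ± 0.02 at 15 min, -0.08 ± 0.02 at 30 min and 0.13 ± 0.02 at 4 h (95% interval 0.09 to 0.17) passed no 1.5-fold test, and scaling by library size alone turned the last to -0.57. The summed level of 7 choroid plexus markers was 10564 to 11004 CPM in PBS, 9404 to 9909 CPM at 15 min, 13918 to 14260 CPM at 30 min and 17738 to 18621 CPM at 4 h. By TPM the sum was mostly Ttr, at 16623 TPM in PBS of a list sum of 16801 to 17507 TPM. Ttr, Kl and Clic6 were called higher at 4 h, which is 42.9% of the list, beside 19% of all genes. With library size scaling none of the 3 was called, and the sum was 12282 to 12875 CPM in PBS and 12734 to 13314 CPM at 4 h. None of the 7 was at 0, and their part in the Igf2 values was not tested.

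**Figure D2:**
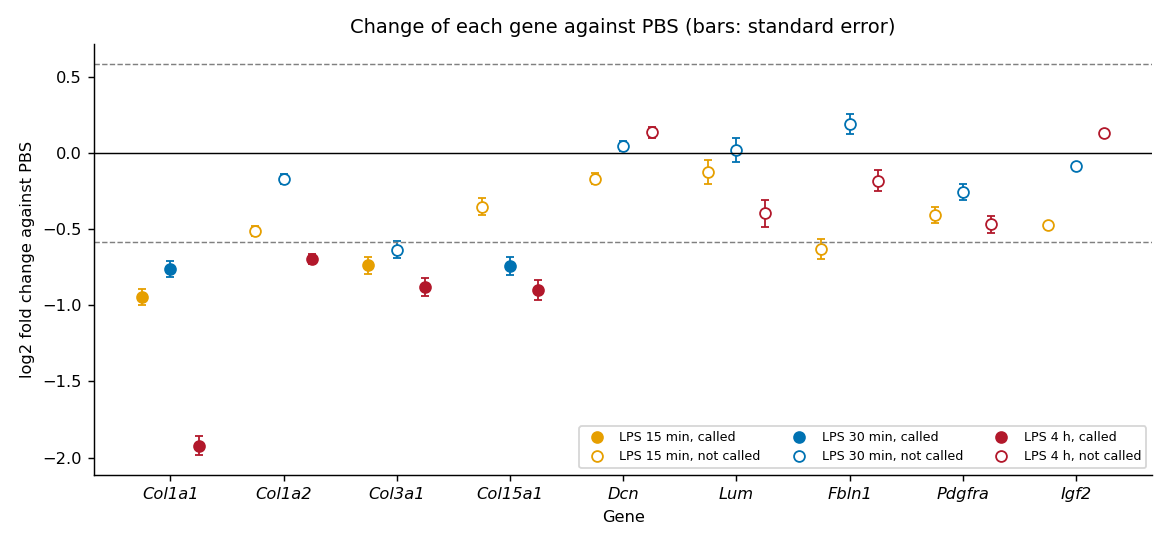
Log2 fold change against PBS (vertical axis) of the 9 genes by time after LPS (15 min, 30 min, 4 h), with standard errors from edgeR; filled points were called, and dashed lines mark the 1.5-fold limit. Col1a1 stands lowest at each time, at -1.92 at 4 h, while Dcn, Lum, Pdgfra, Igf2 and Fbln1 have no filled point. Dcn and Igf2 at 4 h lie above 0 here and below 0 under library size scaling, under which Lum, Pdgfra and Fbln1 were called lower at 4 h.

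Counted together, 2 of 9 members were called at 15 min, both lower, where 0.872% of all genes tested were called lower. At 30 min, 2 of 9 were called lower, against 0.799% of all genes. At 4 h, 4 of 9 were called lower, against 13.8% of all genes. With library size scaling 7 of 9 were called lower at 4 h (all but Dcn and Igf2), against 44.7% of all genes. None was called higher against PBS, where 3.31%, 3.78% and 19% of all genes were called higher in order of time. Between 15 and 30 min 1 member was called higher (Fbln1), against 2.69% of all genes, and between 30 min and 4 h 1 was called lower (Col1a1), against 11.8%.

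The members had a median log2 fold change of -0.47 at 15 min, of -0.17 at 30 min and again of -0.47 at 4 h, where all genes had medians of -0.0021, -0.010 and -0.0098. At 15 min, 9 of 9 members had a value below 0, as 50.3% of all genes did. Groups did not overlap and lay lower than PBS for 8 members at 15 min (24.1% of all genes), for 6 at 30 min (23% of all genes) and for 7 at 4 h (35% of all genes). Without the 1.5-fold limit, 8 members were called at 15 min (38.6% of all genes), 7 at 30 min (36.9%) and 9 at 4 h (68.5%), Dcn and Igf2 higher at 4 h on the TMM scale and lower under library size scaling.

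Beside the values at 15 min, some markers of several other cell types were called, where 0.872% of all genes were called lower and 3.31% higher. Gfap, 1 of 6 astrocyte markers, was called lower (-1.20 ± 0.04). Of 8 endothelial markers, Cldn5 was called lower (-0.73 ± 0.02) and Slc2a1 higher (0.70 ± 0.02). Of the 3 neutrophil markers tested, S100a9 was called lower (-1.89 ± 0.26). Of 7 smooth muscle markers, 3 were called lower (Acta2, Cnn1 and Myh11), and their summed level was 1909 to 1947 CPM against 2906 to 2942 CPM in PBS. Of 6 arachnoid markers, 3 were called lower (Aldh1a2, Crabp2 and Ptgds), and their sum, mostly Ptgds, was 2691 to 2788 CPM against 4988 to 5082 CPM in PBS. The arachnoid marker Dpp4 was not called, at 4.37 TPM in PBS and 5.58 TPM at 15 min. Of 5 neuron markers, 2 were called higher at 15 min (Slc17a7 and Syt1). At 30 min no smooth muscle marker was called and the sum was 2656 to 2680 CPM; the arachnoid sum was 5953 to 6031 CPM. Leaving out 1 library ended the calls of Cnn1 (replicate 2 of PBS, or replicate 2 or 3 of LPS 15 min, adjusted p of 0.0512 to 0.0757), Crabp2 (replicate 2 of PBS or replicate 3 of LPS 15 min, 0.0530 and 0.0764), Aldh1a2 (replicate 3 of PBS, 0.0522), Myh11 (replicate 1 of LPS 15 min, 0.0717) and Syt1 (any library but replicate 1 of PBS, 0.0531 to 0.154).

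At 4 h markers of most cell types moved, where 13.8% of all genes were called lower and 19% higher. The smooth muscle sum was 2783 to 2846 CPM, with Lmod1 called lower and Des higher, while 5 of 6 arachnoid markers were called lower and their sum was 2575 to 2720 CPM. Slc47a1, among these 5, is also in the list of other fibroblast markers and was low, at 2.74 CPM in PBS and 0.669 CPM at 4 h. Of 8 endothelial markers, 5 were called lower (Cldn5, Pecam1, Slc2a1, Slco1a4 and Tek) and Cdh5 was called higher, with a list median of -1.05 on the log2 scale and a sum of 7523 to 7553 CPM against 11117 to 11396 CPM in PBS. Of 8 pericyte markers, 3 were called lower (Anpep, Atp13a5 and Higd1b), as were 3 of 6 oligodendrocyte markers (Cldn11, Mag and Mog) and 1 of 5 neuron markers (Tubb3). The neuron count is 20% of its list and the smooth muscle counts are 14.3% each way, near the shares of all genes. All 3 neutrophil markers that were tested rose (median 6.11), and their summed level with Ly6g, which did not pass the filter, went from 1.95 to 2.56 CPM in PBS to 158 to 165 CPM at 4 h. Of 6 astrocyte markers 3 were called higher (Aqp4, Gfap and Gja1), and of 6 markers of microglia and macrophages 2 were called higher and 2 lower. The call of Gfap was lost on leaving out any 1 of 5 libraries (adjusted p of 0.0548 to 0.280). That of Aqp4 was lost without replicate 2 of LPS 4 h (adjusted p = 0.0663). Leaving out 1 library also ended the calls of Higd1b (adjusted p of 0.0844 to 0.109) and Mog (0.0715). With library size scaling the calls at 4 h became 6 lower and 1 higher for endothelial, 8 lower for pericyte, 5 lower for smooth muscle and 5 lower for arachnoid markers, and 3 higher for neutrophil markers. They became 2 higher and 1 lower for astrocyte markers and 4 lower for markers of microglia and macrophages. For oligodendrocyte and neuron markers they became 4 and 5 lower. On that scale Gfap and Des stood at -0.06 and -0.01. Apart from Ly6g, which was at 0 in PBS and at 15 min, none of these markers was at 0 in a group mean, and their part in the fibroblast values was not tested.

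Ratios between members within a library do not depend on how libraries are scaled. The TPM of Col1a1 relative to that of Col1a2 was 0.466 ± 0.0261 (SD, n = 3) in PBS, 0.348 ± 0.0224 at 15 min, 0.305 ± 0.0115 at 30 min and 0.202 ± 0.00985 at 4 h. The 4 groups did not overlap and followed the order of time. On the log2 scale the ratio differed from PBS by -0.42, -0.61 and -1.20. An exact two-sided permutation test of 3 against 3 libraries cannot go below 0.1, which each of these 3 differences reached (0.122 after Benjamini-Hochberg adjustment over 50 ratio tests).

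Relative to Dcn, Col1a1 went from 0.207 ± 0.00496 in PBS to 0.0478 ± 0.00562 at 4 h, a log2 difference of -2.12. The ratio of Col1a2 to Dcn went from 0.445 ± 0.0142 to 0.236 ± 0.0241, that of Col3a1 from 0.259 ± 0.0219 to 0.102 ± 0.0225 and that of Col15a1 from 0.240 ± 0.0212 to 0.0883 ± 0.0104. For Col1a1, Col1a2, Col3a1 and Col15a1 over Dcn, the log2 differences at 4 h were -2.12, -0.92, -1.36 and -1.44 on TPM. On fragments they were -2.05, -0.83, -1.02 and -1.03. In none of the 4 TPM ratios did the 4 h libraries overlap PBS, and each gave the smallest exact permutation p of 0.1. Over all genes, 40% had a ratio to Dcn at 4 h that lay wholly below PBS. The ratio of Igf2 to Dcn was 8.60 ± 0.189 in PBS and 8.75 ± 0.756 at 4 h, with overlapping libraries and a log2 difference of 0.022 on TPM and -0.0054 on fragments.

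**Figure D3:**
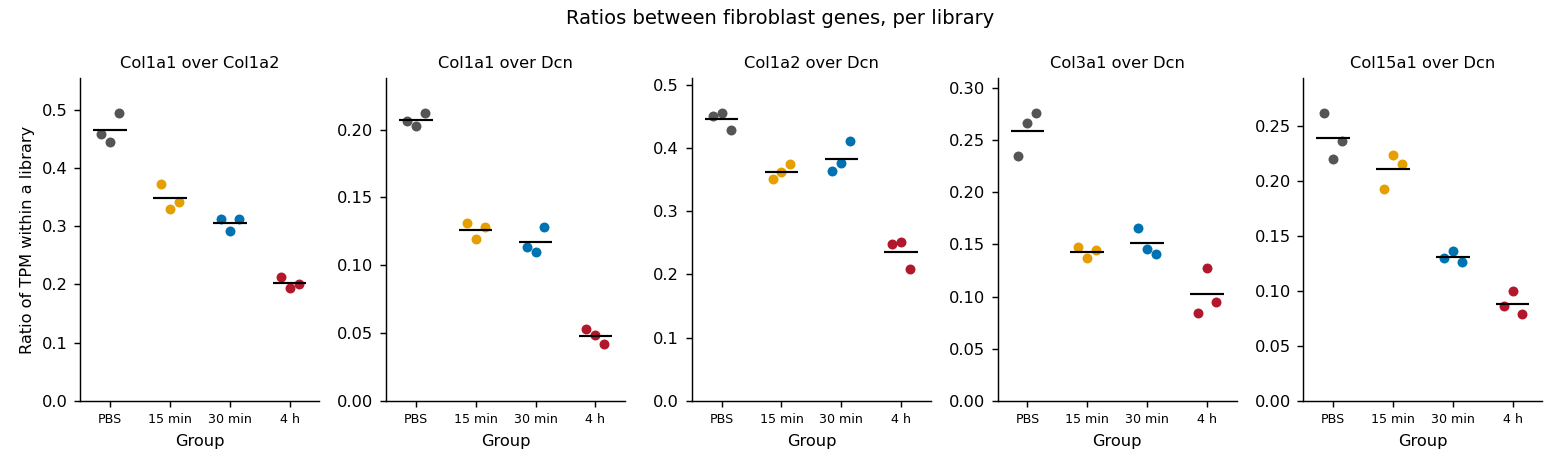
Ratio of TPM within each library (vertical axes, from 0) for Col1a1 over Col1a2 and for 4 collagen genes over Dcn, by group; points are libraries and lines are means of 3. Col1a1 over Col1a2 goes from 0.466 in PBS to 0.202 at 4 h, and all 5 ratios are lower at 4 h than in PBS without overlap.

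Per transcript length, Igf2 led in every group, with 1027 ± 7.28 TPM in PBS, which was 77.1% of the TPM of the 9 members together. Dcn followed with 120 ± 3.47 TPM and Col1a2 with 53.2 ± 0.750 TPM. Col3a1 (31.0 ± 3.41 TPM), Col15a1 (28.6 ± 2.27 TPM) and Col1a1 (24.8 ± 1.23 TPM) were neighbours in this order, and the first overlapped the second and the second the third. Fbln1 (21.9 ± 1.05 TPM) came next, and Lum (13.1 ± 0.562 TPM) overlapped Pdgfra (12.7 ± 0.200 TPM) at the end. At 4 h the first 3 places were unchanged and Col1a1 stood last, at 3.49 ± 0.239 TPM, below Pdgfra at 4.96 ± 0.318 TPM without overlap.

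The share of a gene's fragments that Salmon gave to each transcript also differed by group for some members. Dcn-202, a coding transcript that starts downstream of Dcn-201, held 19.1 ± 3.67% (SD, n = 3) of Dcn fragments in PBS, 20.5 ± 7.96% at 15 min, 17.0 ± 1.92% at 30 min and 38.1 ± 4.35% at 4 h. The 4 h libraries, at 34.6% to 43.0%, lay above all others. Col15a1-203, a short transcript at the 3′ end of Col15a1, held 36.0 ± 1.51% in PBS and 21.4 ± 6.98% at 4 h, without overlap. Igf2-208, a short transcript annotated as processed, held 23.4 ± 0.802% of Igf2 fragments in PBS and 26.9 ± 0.500% at 4 h, again without overlap. Salmon divides reads that several transcripts share, so these shares are estimates.

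Gene values also differed between the gene table of the authors and summed fragments. In that table, which accounts for transcript length, the log2 ratio of group means at 4 h was -1.27 for Col15a1 and -1.17 for Col3a1, where summed fragments gave -0.90 and -0.88. For Col1a1 the gene table gave -1.95 and summed fragments -1.92, and for Dcn 0.18 and 0.13. The part of the transcript shares in these differences was not tested. Igf2os, an antisense gene that overlaps Igf2, had 81.3 fragments per library on average against 24371 for Igf2, and the library kit does not mark strand.

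**Figure D4:**
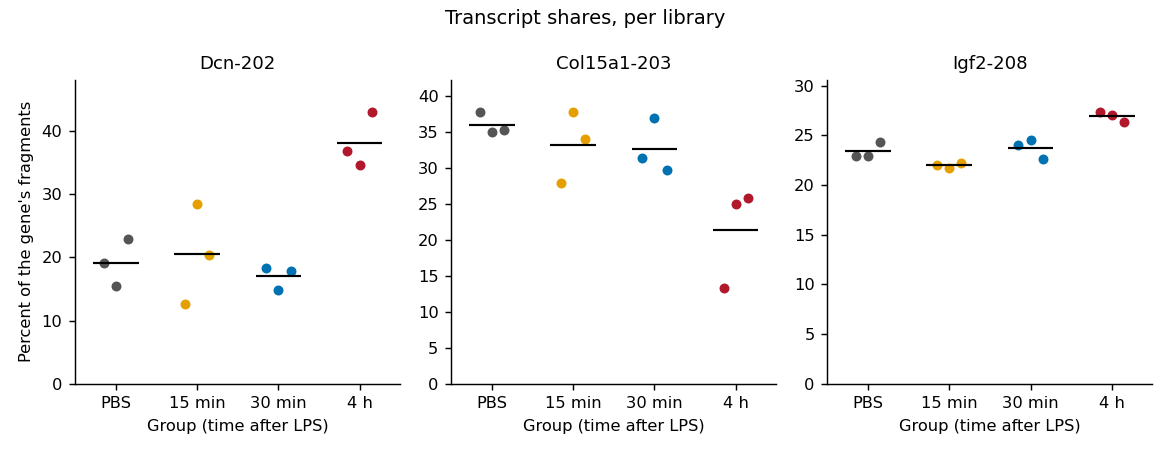
Share of a gene's fragments, in percent (vertical axes, from 0), that Salmon gave to Dcn-202, Col15a1-203 and Igf2-208 in each library, by group; points are libraries and lines are means of 3. Dcn-202 and Igf2-208 are higher and Col15a1-203 is lower at 4 h than in PBS, without overlap.

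Genes that act with the members were read from fixed lists. Of all genes, 0.872%, 0.799% and 13.8% were called lower and 3.31%, 3.78% and 19% higher in order of time. Among 24 other fibroblast markers, 2 were called lower at 15 min (Slc6a13, a GABA transporter, and Fmod, the proteoglycan fibromodulin), 1 was called higher at 30 min (Slc47a1) and 11 fell while 2 rose at 4 h, which is 45.8% and 8.33% of the list, where 13.8% and 19% of all genes did. The call of Slc47a1 at 30 min was lost without any 1 library but replicate 2 of PBS (adjusted p of 0.0614 to 0.215) and under library size scaling. The list's median log2 fold change was -0.44, -0.12 and -0.68 in order of time. The largest falls at 4 h were those of the laminin chain Lama1 (-2.55 ± 0.08, edgeR adjusted p = 6.4e-17), of Slc6a13 (-2.26 ± 0.05) and of the exporter Slc47a1 (-2.01 ± 0.28). Slc47a1 was low, at 2.74 CPM in PBS, and is also in the arachnoid list. Those that rose were Cyp1b1, a cytochrome P450 enzyme (1.22 ± 0.08), and Ccn3, a matricellular protein (0.79 ± 0.05). With library size scaling they stood at 0.52 and 0.08 and neither was called. On that scale 20 of the 24 markers were called lower at 4 h, where 44.7% of all genes were.

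Of 18 genes that fold, cleave and cross-link procollagen, 2 were called higher and 1 lower at 15 min, 3 higher at 30 min, and 3 higher and 2 lower at 4 h. The counts at 4 h are 16.7% and 11.1% of the list, near the 19% and 13.8% of all genes. With library size scaling they became 2 higher and 11 lower, where 9.96% and 44.7% of all genes were called. The prolyl 4-hydroxylase subunits P4ha1 and P4ha2 rose at 15 min (0.82 ± 0.04 and 0.89 ± 0.05) and at 30 min (1.05 ± 0.04 and 1.11 ± 0.05), when the collagen chaperone Serpinh1 rose as well (0.78 ± 0.03, not called at 0.61 under library size scaling). Lox, which cross-links collagen, fell at 15 min (-0.84 ± 0.06) and rose at 4 h (2.34 ± 0.05), as did Loxl2 at 4 h (1.40 ± 0.07). Plod3, a lysyl hydroxylase, rose at 4 h (0.66 ± 0.04, but -0.05 under library size scaling). Crtap (-1.23 ± 0.04) and Sparc (-0.63 ± 0.02) fell at 4 h. Plod3 was not called without replicate 1 or 3 of PBS or replicate 1 of LPS 4 h (adjusted p of 0.0506 to 0.130), and Sparc was not called without replicate 1 of PBS or replicate 1 or 2 of LPS 4 h (adjusted p of 0.0695 to 0.131).

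Of the 10 small leucine-rich proteoglycans, the family of Dcn and Lum, 8 were tested and 4 fell at 4 h. That is 50% of those tested, where 13.8% of all genes were called lower. The largest falls were those of Fmod (-1.55 ± 0.05), Omd (-1.16 ± 0.17) and Aspn (-0.997 ± 0.06), and Kera and Epyc, neighbours of Dcn and Lum, did not pass the filter. Fmod also fell at 15 min (-0.88 ± 0.05). With library size scaling 7 of the 8 tested were called lower at 4 h, where 44.7% of all genes were. Of 7 fibulins and relatives, Fbln5 fell at 15 min (-0.73 ± 0.03) and at 4 h (-1.07 ± 0.03), and Hmcn1 fell at 4 h (-1.91 ± 0.09). The 2 at 4 h are 28.6% of the list, beside 13.8% of all genes. With library size scaling all 7 were called lower at 4 h.

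Among 7 PDGF genes, none was called at 15 or 30 min. At 4 h the ligand Pdgfa, which binds PDGFRA, rose by 1.99 ± 0.03 on the log2 scale, from 78.8 to 313 CPM, while the ligand Pdgfb fell (-0.95 ± 0.03), as did Pdgfrl (-1.11 ± 0.21). Of the list, 14.3% were thus called higher and 28.6% lower, beside 19% and 13.8% of all genes. With library size scaling 1 was called higher and 5 lower. Kit and Kdr, receptor genes that neighbour Pdgfra on chromosome 5, rose (1.62 ± 0.10) and fell (-2.18 ± 0.03) at 4 h. Among 19 IGF genes, none was called at 15 min, and Irs2, an adaptor of the receptors, rose at 30 min (0.82 ± 0.08). That call was lost without replicate 2 of PBS (adjusted p = 0.199), without replicate 2 of LPS 30 min (adjusted p = 0.149) and under library size scaling (0.66). At 4 h 5 rose, led by Irs2 (2.18 ± 0.07), Igf2bp2 (1.53 ± 0.27) and the binding protein Igfbp3 (1.33 ± 0.03), and 3 fell: Igf2bp1 (-2.40 ± 0.68), Igf1 (-1.48 ± 0.19) and the receptor Igf1r (-1.03 ± 0.03). These are 26.3% and 15.8% of the list, beside 19% and 13.8% of all genes. With library size scaling 1 was called higher and 7 lower, and Igf2bp2 (0.83) and Igfbp3 (0.62) were not called. Igf2bp1 was not called without replicate 1 or 2 of LPS 4 h (adjusted p of 0.0699 and 0.0683). H19, the neighbour of Igf2, was at 0.806 CPM in PBS and was not called.

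Among 13 TGF-beta ligands and matrix genes known to respond to them, 7 rose and 1 fell at 4 h, when Col1a1 fell. These are 53.8% and 7.69% of the list, beside 19% and 13.8% of all genes. With library size scaling 5 were called higher and 4 lower. Among those that rose at 4 h, Thbs1, which encodes thrombospondin 1, rose by 4.42 ± 0.04 and Ccn2, a matricellular protein, by 3.40 ± 0.03 on the log2 scale. Ccn1 and Ccn2 had risen at 15 min (3.10 ± 0.04 and 0.72 ± 0.03), and at 30 min Ccn1 rose by 5.50 ± 0.04. The ligand Tgfb2 fell at 15 min (-0.94 ± 0.04), 30 min (-0.69 ± 0.04) and 4 h (-0.66 ± 0.04), and Ltbp1 fell at 15 min (-1.0 ± 0.05). The call of Ccn2 at 15 min was lost without replicate 1 of PBS (adjusted p = 0.0510). That of Tgfb2 was lost at 30 min without any 1 library but replicate 3 of LPS 30 min (0.0562 to 0.147) and at 4 h without replicate 2 or 3 of PBS or replicate 2 of LPS 4 h (0.0593 to 0.190).

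**Figure D5:**
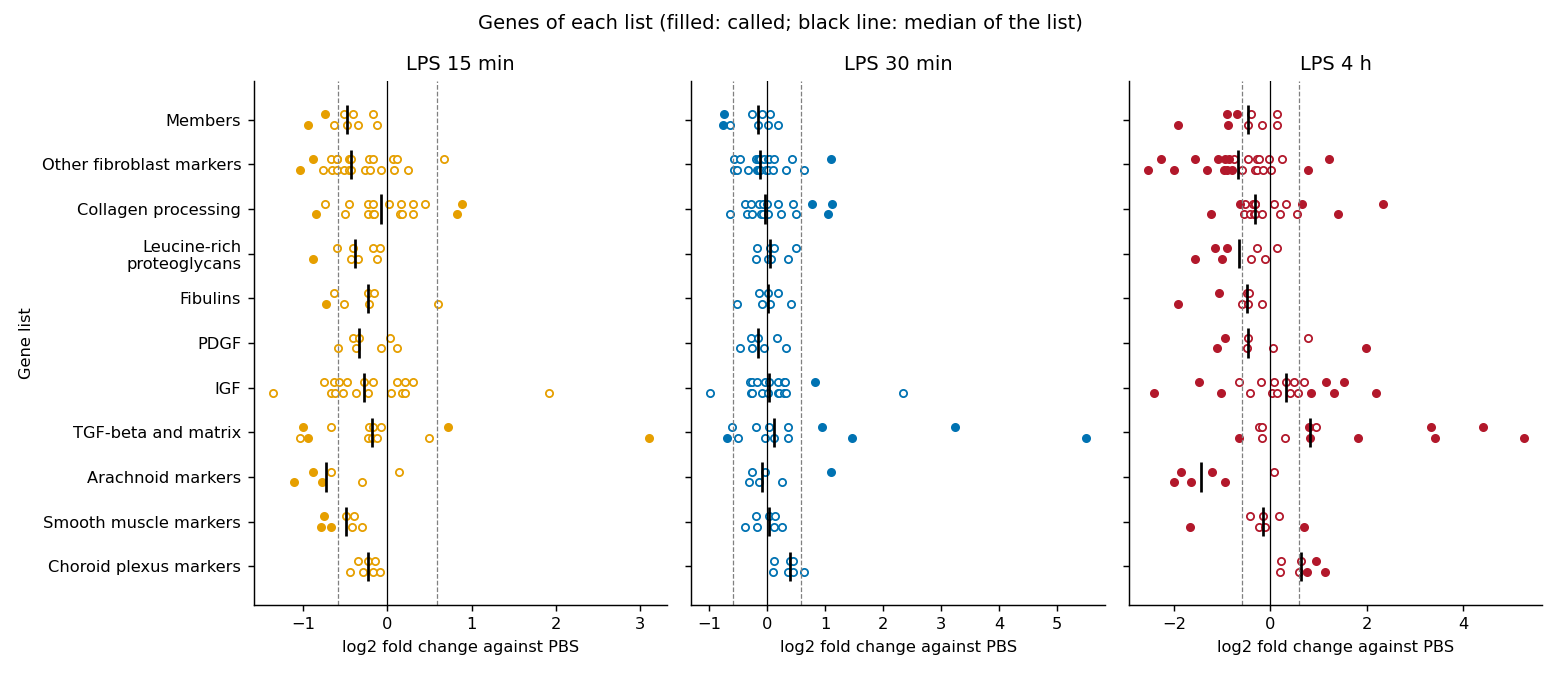
Log2 fold change against PBS (horizontal axes) of each gene in 11 lists (vertical axis) by time after LPS (15 min, 30 min, 4 h); filled points were called, dashed lines mark the 1.5-fold limit and black lines are list medians. At 4 h the medians are -0.47 for the members, -0.68 for the other fibroblast markers, -1.43 for the arachnoid markers and 0.83 for the TGF-beta list; with library size scaling all genes shift by a median of -0.71.

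Of 12793 genes with a mean of at least 5 CPM, those whose 3 log2 fold changes against PBS lay closest to the members' median were Fermt3, Renbp, Thbs2, Slc26a2 and Sqor. Their root mean square distances over the 3 conditions were 0.0132 to 0.0379. Thbs2, which encodes thrombospondin 2 and is also in the list of other fibroblast markers, had values of -0.44, -0.16 and -0.46 in order of time.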

How the data were processed

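Vessel RNA of 12 mouse libraries was sequenced by the authors after SMART-Seq v4 amplification. Per the labels and methods, the authors ran Salmon 1.2.1, tximport and DESeq2 on GRCm38.p6. The deposited estimated counts are fragments per transcript and are not normalized; the deposited TPM were scaled for length by the authors. The gene table of the authors is a normalized signal, whose 12 columns were matched to libraries by the number in each library's own name, and each lay closest to its own library. Here, estimated counts were summed to genes (GENCODE M21; 0.482% to 0.85% of fragments were not joined), rounded, filtered (filterByExpr, minimum count 10, minimum total 15, proportion 0.7) and tested with edgeR 4.0.16 (TMM, quasi-likelihood, all 4 groups in 1 fit, threshold test at log2(1.5), Benjamini-Hochberg adjusted p under 0.05). SE is the log2 fold change over the root of F. limma 3.58.1, DESeq2 1.42.0, R 4.3.3 and Python 3.11.15 served the rest. The test was checked on simulated data, where the first criterion, on the share of changed genes called, was missed in a comparison. The misses lay among genes with few fragments. The criterion was then set anew on genes with more fragments only.

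The members and lists were chosen with earlier results of these data known. The ratios, transcript shares and motifs were chosen after values were seen. From each list, genes named were up to 3 largest called changes each way at 4 h and up to 2 at 15 and 30 min, plus neighbours; 1 gene of the TGF-beta list is not reported here. Depth of 18.3 M to 25.9 M fragments limits precision, and fragments carry no molecular identifiers. Replicates of a group differed by 2.21 to 2.93 times the counting noise (median over genes).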

Additional observations from a re-analysis of the deposited data

Results flagged for a closer look

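The effect of LPS on 2 members differed between time points when the difference itself was tested with edgeR. Fbln1 changed from -0.63 on the log2 scale against PBS at 15 min to 0.19 at 30 min, a difference of 0.82 ± 0.07 (SE; adjusted p = 0.00737), with all 3 libraries at 30 min above all 3 at 15 min. Col1a1 changed from -0.76 at 30 min to -1.92 at 4 h, a difference of -1.16 ± 0.07 (adjusted p = 1.02e-08), with all 3 libraries at 4 h below all 3 at 30 min. The Fbln1 difference was not called without replicate 3 of LPS 15 min.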

How the results depend on the processing

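Under RLE factors, no filter, a length offset and fits of only the groups compared, the count of members called was as given for all 5 comparisons: 2 at 15 min, 2 at 30 min and 4 at 4 h against PBS, 1 between 15 and 30 min and 1 between 30 min and 4 h. Without the fold limit the counts, in the same order, were 8, 7, 9, 7 and 8, and with a limit of 1.5 on the log2 scale they were 0, 0, 1, 0 and 0. DESeq2 with the same limit called 1, 1, 4, 0 and 1, and limma on the log2 gene table called 1, 0, 4, 0 and 1 with either pseudocount, 1 or 10. The cause of these differences was not tested. Library size scaling called 2, 3, 7, 0 and 7, and over all genes at 4 h it called 1907 higher and 8555 lower (44.7%), against 3636 and 2637 with TMM; at 30 min it called 541 higher and 340 lower, against 724 and 153.

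Library size scaling also turned the sign of Dcn (-0.12) and Lum (-0.15) at 30 min, of Dcn (-0.57) and Igf2 (-0.57) at 4 h, of Col3a1 (-0.038) between 15 and 30 min, and of Dcn (-0.45) and Igf2 (-0.32) between 30 min and 4 h; its median over all genes had moved the same way. Leaving out each library gave 1 to 2 members called at 15 min, 0 to 2 at 30 min, 4 at 4 h, 0 to 1 between 15 and 30 min and 1 between 30 min and 4 h, and the log2 fold change of Lum at 30 min ran from -0.024 to 0.056. Libraries with the same number did not deviate together (correlations of -0.05 to 0.07 over 18 pairs), so that no pairing by number showed in the values. Whether the number marks a shared preparation is not given in the sources used here. With the replicate block 2, 1, 4, 1 and 1 members were called. Ratios were recomputed on fragments in place of TPM, a check added after seeing the data. The 15 differences from PBS of the 4 collagens over Dcn and of Col1a1 over Col1a2 kept their sign. Those of Col3a1 and Col15a1 over Dcn at 4 h went from -1.36 and -1.44 on TPM to -1.02 and -1.03 on fragments. Igf2 over Dcn at 4 h turned from 0.022 to -0.0054 and ran from -0.024 to 0.095 without each library. Col1a1 over Col1a2 at 4 h was -1.22 on fragments and -1.24 to -1.16 without each library. Depth limits Lum most, which had 182 to 521 fragments per library and an SE of 0.08 to 0.09 against PBS.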
